A study of Mus musculus with 20 samples.

Results

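The genes described here carry calcium through the heartbeat: 10 genes, Ryr2, Atp2a2, Pln, Sln, Casq2, Trdn, Jph2, Cacna1c, Slc8a1 and Camk2d, taken by symbol from the 23420 genes of a cardiac RNA-seq count table. All 10 passed the filter on low counts, which kept 13590 genes with a level of 1 CPM or more (CPM, a gene's share of the read pairs of its library, scaled to the usual fixed total) in at least 10 of 20 mice. The CPM values printed below divide instead by the read pairs on the genes kept, times each library's TMM scaling factor. That factor ran from 0.96 to 1.07. Whole hearts came from male wild type C57BL/6 mice (C57BL/6J in the study's methods) aged 9 weeks, which had been fed for 6 weeks, from the age of 3 weeks, either a control diet (control, n = 10) or an iron-deficient diet (IDA, for iron-deficiency anemia, n = 10). The comparison asks how dietary iron-deficiency anemia altered cardiac transcripts. Every heart was wild type, so diet was the only labelled difference. The labels state the iron limit of the deficient diet as both below and above 2 ppm. RNA was taken from powdered whole heart, which holds atria and ventricles and all their cell types, and in such tissue fewer cells of a type and less RNA per cell cannot be told apart.

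In a cardiac myocyte, the action potential opens L-type calcium channels in the transverse tubules, and the calcium that enters opens ryanodine receptors on the facing sarcoplasmic reticulum, which release the store that drives contraction. For relaxation, the SERCA pump returns calcium to the reticulum under the restraint of phospholamban and sarcolipin, and the sodium-calcium exchanger removes the remainder from the cell. Adrenergic kinases and the calcium/calmodulin-dependent kinase CaMKII set the pace of the cycle by phosphorylating the release channel, the L-type channel and phospholamban.

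The change of each gene depended on whether the length of its exons was taken into account. Without a length correction, edgeR's quasi-likelihood test (Benjamini-Hochberg adjusted p below 0.05 over all genes tested) called 6 of the 10 genes: Jph2 and Casq2 were higher in IDA hearts and Ryr2, Cacna1c, Slc8a1 and Camk2d were lower. The background was high, since the same test called 67.5% of all genes, 35.0% as higher and 32.5% as lower. After each mouse's trend of expression on exonic length was removed, 5 genes were called, all higher in IDA: Ryr2, Atp2a2, Trdn, Jph2 and Slc8a1. Here 55.0% of all genes were called, 31.5% higher and 23.5% lower. Ryr2 and Slc8a1 were thus called in opposite directions by the 2 fits, and Jph2 was the 1 gene called in the same direction by both, beside 3.76% of all genes called in opposite directions and 40.6% in the same direction. Under the study's rule of p below 0.01 in both edgeR and DESeq2, 5 genes were called without the correction (1 higher and 4 lower) and 5 with it (all higher), beside 59.8% (30.6% higher and 29.2% lower) and 47.0% (26.7% higher and 20.4% lower) of all genes. The study, with 1 mouse fewer per group, reported far fewer genes by that rule, most of them lower in IDA. The shares given here are therefore unlike the study's, and the reason was not tested. The median log2 fold change of the 10 genes was 0.01 without the correction and 0.23 with it, beside 0.02 and 0.04 over all genes tested.

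**Figure D1:**
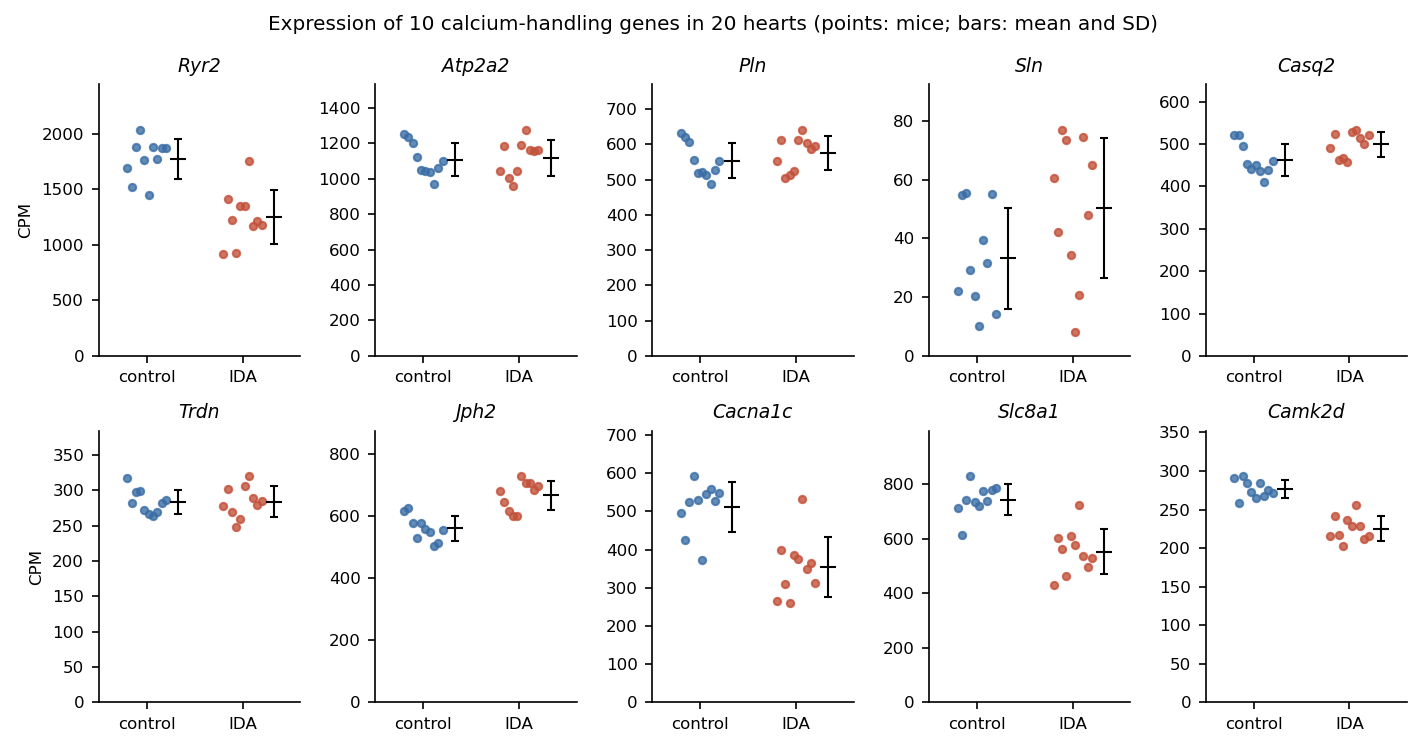
Expression of the 10 genes in CPM in each of 10 control and 10 IDA hearts, without a length correction; points are mice, and the bar beside each group is the mean with its SD. Camk2d is the gene whose groups do not overlap, Jph2 lies higher in IDA, and Ryr2, Cacna1c and Slc8a1 lie lower with 1 to 4 IDA mice inside the control range.

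The libraries held 6797180 to 8960688 read pairs in control mice and 6682177 to 7833916 in IDA mice (medians 7902932 and 6806177), and these totals differed between the diets (two-sided permutation test, p = 0.00914). No pair of libraries was identical. The labelled tissue was checked against its markers, and the 7 markers of working cardiomyocytes (Myh6, Tnnt2, Tnni3, Actc1, Tnnc1, Mybpc3 and Myoz2) summed to 3042 to 3963 CPM in control and 3293 to 4099 CPM in IDA hearts. Without the length correction Tnni3, Tnnc1 and Myoz2 of that list were called higher (0.14 to 0.15) and the other 4 were not called. With it Myh6 (0.45) and Mybpc3 (0.32) were called higher and the other 5, Tnni3, Tnnc1, Myoz2, Tnnt2 and Actc1, lower (-0.20 to -0.12).

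The cardiac ryanodine receptor, Ryr2 (mm10 chr13:11553103-12106945, minus strand, 105 exons listed and 16813 bp of exon), is the calcium release channel of the sarcoplasmic reticulum. Its control CPM ran from 1451 through a median of 1820 to 2036, and its IDA CPM from 916 through 1220 to 1754. The groups overlapped only at the upper end: 9 of 10 IDA mice lay below the lowest control mouse, and all 10 lay below the control mean. Mean expression was 1774 ± 178.6 CPM in control and 1248 ± 243.2 CPM in IDA hearts (SD, n = 10 each), a log2 fold change of -0.51 ± 0.09 (SE, edgeR adjusted p = 4.46e-05). With the length trend removed the sign turned, to 0.28 ± 0.06 (edgeR adjusted p = 0.00022), with 10 of 10 IDA mice above the control mean and 8 above the highest control mouse.

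Cacna1c (9053 bp of exon, chromosome 6), which encodes the pore of the L-type calcium channel, had control values of 373, 529 and 592 CPM at the lowest, median and highest mouse and IDA values of 260, 358 and 531 CPM. The groups overlapped, with 6 IDA mice below every control mouse and 1 IDA mouse above the control mean. The means were 512 ± 65.5 and 355 ± 78.6 CPM (SD), and the log2 fold change was -0.53 ± 0.10 (SE, edgeR adjusted p = 0.00012). The 200 genes nearest to it in length had a median of -0.56, and with the length trend removed Cacna1c stood at 0.04 ± 0.07 (edgeR adjusted p = 0.673).

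Among the genes that build the release site, Jph2 was called higher with and without the length correction. Junctophilin-2, its product, ties the reticulum to the transverse tubule (4255 bp of exon, chromosome 2). Control mice had 503, 557 and 625 CPM at the lowest, median and highest mouse, and IDA mice 599, 682 and 728 CPM. All 10 IDA mice lay above the control mean and 7 lay above the highest control mouse. The log2 fold change was 0.25 ± 0.05 (SE, edgeR adjusted p = 6.66e-05) and grew to 0.47 ± 0.06 (edgeR adjusted p = 4.25e-06) with the length trend removed.

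Casq2, cardiac calsequestrin, stores calcium inside the reticulum (2514 bp of exon, chromosome 3). It was at 411, 452 and 522 CPM in control and 457, 507 and 534 CPM in IDA hearts (lowest, median and highest mouse). The ranges overlapped widely, and the small rise of 0.11 ± 0.05 (SE, edgeR adjusted p = 0.0355) became 0.08 ± 0.05 (edgeR adjusted p = 0.151) with the length trend removed. The uncorrected call held in 46 of 100 fits that each left out 1 mouse of either diet, and in none of the 10 fits without control replicate 8, where the log2 fold change was 0.07 to 0.09.

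Trdn encodes triadin, which links calsequestrin to the release channel (4514 bp of exon, chromosome 10). Control mice had 263, 282 and 317 CPM and IDA mice 248.7, 282 and 320 CPM at the lowest, median and highest mouse. The means of 283.6 and 283.9 CPM did not differ beyond the spread (coefficients of variation 5.99% and 7.66%; edgeR adjusted p = 0.983). With the length trend removed Trdn was called higher, with a log2 fold change of 0.25 ± 0.05 (SE, edgeR adjusted p = 0.000338) and 9 of 10 IDA mice above the control mean.

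The pump that refills the store, SERCA2, is encoded by Atp2a2 (5725 bp of exon, chromosome 5). Its CPM ran from 969 through 1081 to 1251 in control and from 958 through 1158 to 1276 in IDA hearts, and these ranges overlapped almost entirely. The log2 fold change was 0.01 ± 0.05 (SE, edgeR adjusted p = 0.854) without the length correction and 0.37 ± 0.07 (edgeR adjusted p = 0.000167) with it. Phospholamban, encoded by Pln (2480 bp of exon), restrains the pump until it is phosphorylated. Its values were 488, 540 and 633 CPM in control and 506, 592 and 642 CPM in IDA hearts, again overlapping. It was called in neither fit, with log2 fold changes of 0.05 ± 0.05 (edgeR adjusted p = 0.384) and 0.02 ± 0.06 (edgeR adjusted p = 0.787).

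The coding sequences of Pln and of Sln, which encodes the related pump inhibitor sarcolipin, are shown because both are small reading frames inside transcripts of very different length, and it was that length which entered the correction. In Pln (mm10 chr10:53343864-53344022, plus strand, 52 codons and a stop) the capitals mark codons 16 and 17, the serine and threonine phosphorylated by protein kinase A and CaMKII. In Sln (mm10 chr9:53853473-53853568, plus strand, 31 codons and a stop) the capitals mark the last 5 codons, 27 to 31, the luminal tail.
Pln: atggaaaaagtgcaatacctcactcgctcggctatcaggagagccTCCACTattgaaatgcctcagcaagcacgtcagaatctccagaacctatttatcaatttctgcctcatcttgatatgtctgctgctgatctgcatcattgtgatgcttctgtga
Sln: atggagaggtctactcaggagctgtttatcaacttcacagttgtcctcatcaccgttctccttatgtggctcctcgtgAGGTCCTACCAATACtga
The letters are those of the GENCODE M21 annotation on mm10.

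Sln was the shortest and the most variable of the genes, with a coefficient of variation of 51.9% in control and 47.4% in IDA hearts. The count table gave it 520 bp of exon, less than the 1318 bp of the longest GENCODE M21 transcript of Sln, and only 0.98% of tested genes were shorter. Control hearts ran from 10.04 through 30.4 to 55.4 CPM and IDA hearts from 8.003 through 54.2 to 77.0 CPM, so that IDA mice gave both the lowest and the highest value of all. The log2 fold change was 0.61 ± 0.32 (SE, edgeR adjusted p = 0.1003) without the length correction and 0.22 ± 0.32 (edgeR adjusted p = 0.577) with it. The uncorrected value depended on IDA replicate 6, the lowest mouse, at 8.003 CPM: Sln was called in all 10 fits that left it out, with log2 fold changes of 0.63 to 0.85, and in 3 further fits of the 100.

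Slc8a1 encodes the sodium-calcium exchanger NCX1 of the cell surface, and with 18599 bp of exon on chromosome 17 it was the longest of the 10 genes. Control mice had 615, 739 and 828 CPM and IDA mice 430, 549 and 722 CPM at the lowest, median and highest mouse. All 10 IDA mice lay below the control mean and 9 lay below the lowest control mouse. The log2 fold change of -0.43 ± 0.07 (SE, edgeR adjusted p = 1.81e-05) turned to 0.39 ± 0.06 (edgeR adjusted p = 8.84e-06) when the length trend was removed.

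Camk2d encodes the main cardiac isoform of CaMKII (4461 bp of exon, chromosome 3). Its control CPM ran from 259 through 274 to 293 and its IDA CPM from 202 through 223 to 255.997, with every IDA mouse below every control mouse. It was the only one of the 10 genes whose CPM did not overlap, beside 11.3% of all genes tested (4.97% with IDA the higher group and 6.28% with IDA the lower). The log2 fold change was -0.29 ± 0.04 (SE, edgeR adjusted p = 1.39e-06). With the length trend removed it was -0.06 ± 0.04 (edgeR adjusted p = 0.183), and none of the 10 genes was then free of overlap, beside 5.14% of all genes tested (3.02% with IDA higher and 2.12% with IDA lower).

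The length of a transcript and its change went together across the table. When tested genes were ranked by exonic length and cut into 10 bins of 1359, the log2 fold changes of the shortest bin (around 881 bp) centred on 0.34 and those of the longest (around 7761 bp) on -0.53, as bin medians. For each mouse, log2 CPM was taken as its deviation from each gene's mean over all mice of both diets. The slope of these deviations on each doubling of exonic length was fitted over all tested genes but these 10. It was 0.13 ± 0.07 in control and -0.13 ± 0.07 in IDA hearts (SD, n = 10 each). The centring makes the group means mirror each other, so only their difference, -0.25, compares the diets. The sign in either diet is not a trend of expression level on length. The 2 diets did not overlap in this slope (0.02 to 0.20 against -0.25 to -0.03; two-sided permutation test, p = 1e-05, the smallest that the 100000 resamples can give). Diet and the length trend therefore cannot be told apart by group, and the part of the trend in each gene's change was not tested.

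**Figure D2:**
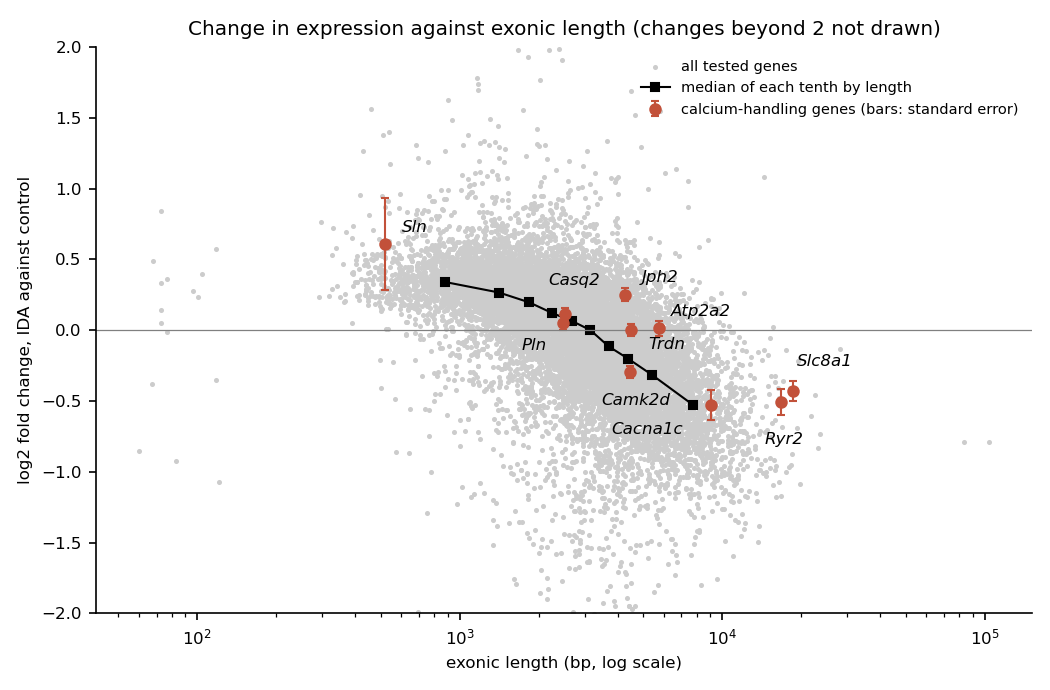
Log2 fold change (IDA against control, no length correction) against exonic length in bp on a log axis, for all tested genes (grey), the median of each of 10 bins by length (black squares) and the 10 calcium-handling genes (red, with standard errors). The black line falls from 0.34 to -0.53, and Jph2 and Atp2a2 stand above it while Camk2d lies just below.

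Set against the 200 genes nearest in exonic length, the genes took different places. Jph2 stood highest, above 93.5% of its neighbours, whose median log2 fold change was -0.23. Sln (89.5%), Atp2a2 (82.0%) and Slc8a1 (75.5%) followed, then Trdn (70.0%) and Ryr2 (67.0%). Cacna1c (53.5%), Casq2 (52.5%) and Pln (46.5%) lay close to the middle of their neighbours. Camk2d lay lowest, above 32.5% of its neighbours, which had a median of -0.14. The neighbours of Ryr2 and Slc8a1 fell, at the median, by 0.72 and 0.71 on the log2 scale, more than either gene. Ryr2 was longer than 99.8% and Slc8a1 than 99.9% of tested genes, so most of their neighbours were shorter. Those neighbours spanned 10687 to 23495 bp for Ryr2 and 10689 to 28034 bp for Slc8a1. The length trend was fitted there near the end of its range.

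Within each diet, the 3 longest genes also followed each mouse's length slope. For Ryr2, Pearson's r was 0.91 in control and 0.84 in IDA mice (n = 10 each; Spearman's rho 0.83 and 0.85; Pearson permutation p = 0.0004 and 0.0034, adjusted over 20 relations 0.0040 and 0.0134). For Cacna1c, r was 0.88 and 0.79 (rho 0.83 and 0.77, permutation p adjusted over the 20 relations 0.0040 and 0.0237). For Slc8a1, r was 0.84 and 0.89 (rho 0.87 and 0.88, permutation p adjusted over the 20 relations 0.0040 and 0.0052). Jph2 went the other way in control mice (r = -0.80, rho = -0.87, permutation adjusted p = 0.0208) but not detectably in IDA mice (r = -0.27, permutation adjusted p = 0.561). The remaining 6 genes showed no relation that passed adjustment. Without the 2 mice farthest from the median slope, r was 0.62 to 0.75 for Ryr2, 0.54 to 0.79 for Cacna1c and 0.73 to 0.76 for Slc8a1.

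A further feature of the counts touched the most abundant of these genes. Duplicate read pairs had been removed before counting, and the number of read pairs on a densely covered gene hardly followed the size of the library. Pln held between 4044 and 4334 read pairs in all 20 mice, a ratio of 1.07 from fewest to most, while the library totals spanned a ratio of 1.34. The variance of its read pairs was 0.53 times their mean in either diet, whereas 204 genes of like count (3000 to 6000 read pairs in controls) had a median of 27.1. Casq2 and Atp2a2 were nearly as flat, with ratios of 1.09 and 1.123. Camk2d, at 1.63, and Ryr2, at 2.27, were not flat.

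**Figure D3:**
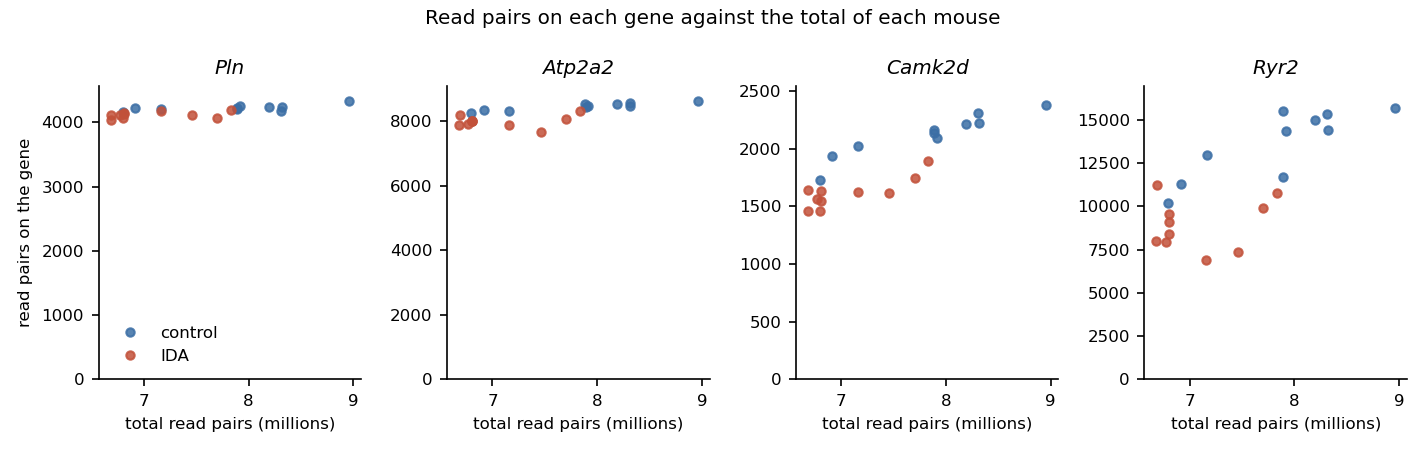
Read pairs counted on Pln, Atp2a2, Camk2d and Ryr2 (vertical axes) against the total read pairs of each library (horizontal axes), with 1 point per mouse. Pln stays between 4044 and 4334 read pairs at every library size, while Camk2d and Ryr2 differ between the diets. On log2 scales, Camk2d climbs with the library total at a slope of 0.98 in control and 1.03 in IDA mice. Ryr2 climbs at 1.45 in control mice and at 0.36 in IDA mice, and these slopes carry no error estimate.

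Coverage tracked this flatness. Pln was covered by 1.68 read pairs per exonic base on average, more than 99.9% of tested genes, followed by Atp2a2 (1.44), Casq2 (1.42) and Jph2 (1.06). Over all genes, the slope of log2 read pairs on log2 library total in control mice had a median of 1.395 below 0.05 read pairs per base and of 0.07 at 1.5 or more. For Pln that slope was 0.09, for Atp2a2 0.14 and for Jph2 0.37. A CPM divides by the library size times its TMM factor, so the CPM of Pln, Atp2a2 and Casq2 carried that size with it. The CPM of Jph2 carried it in part, as did that of Trdn, with a slope of 0.62, and the library totals differed between the diets. With the log2 library total as a covariate, Atp2a2 was called lower in IDA without the length correction (-0.14), Pln likewise (-0.10), and the Casq2 call was lost (-0.02). With the covariate and the length correction together, Atp2a2 was still called higher (0.16, edgeR adjusted p = 0.00046), while Pln (-0.14) and Camk2d (-0.12, edgeR adjusted p = 0.00387) were called lower. Jph2 stayed called higher but was smaller, at 0.13 with the covariate alone (edgeR adjusted p = 0.00171) and 0.31 with both (edgeR adjusted p = 0.000119). Of all genes, 58.3% were called with the covariate alone and 47.8% with both.

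Removing a trend on length together with mean expression level gave other values. Jph2 (0.26), Slc8a1 (0.20), Trdn (0.10) and Atp2a2 (0.08) were called higher in IDA, and Camk2d (-0.19), Cacna1c (-0.15) and Pln (-0.10) were called lower. Ryr2, at -0.02, was not called. In that fit 31.0% of all genes were called higher and 26.4% lower. A trend on length and then on GC content instead left 8 genes called, all higher, with Slc8a1 at 0.60, Trdn at 0.52 and Atp2a2 at 0.41, beside 47.4% of all genes called, 26.5% as higher. Jph2, at 0.47 after the length trend alone, stood at 0.18 there (edgeR adjusted p = 0.00525). Jph2 was called higher in all 4 of these fits, and Camk2d ranged from -0.29 to 0.09.

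**Figure D4:**
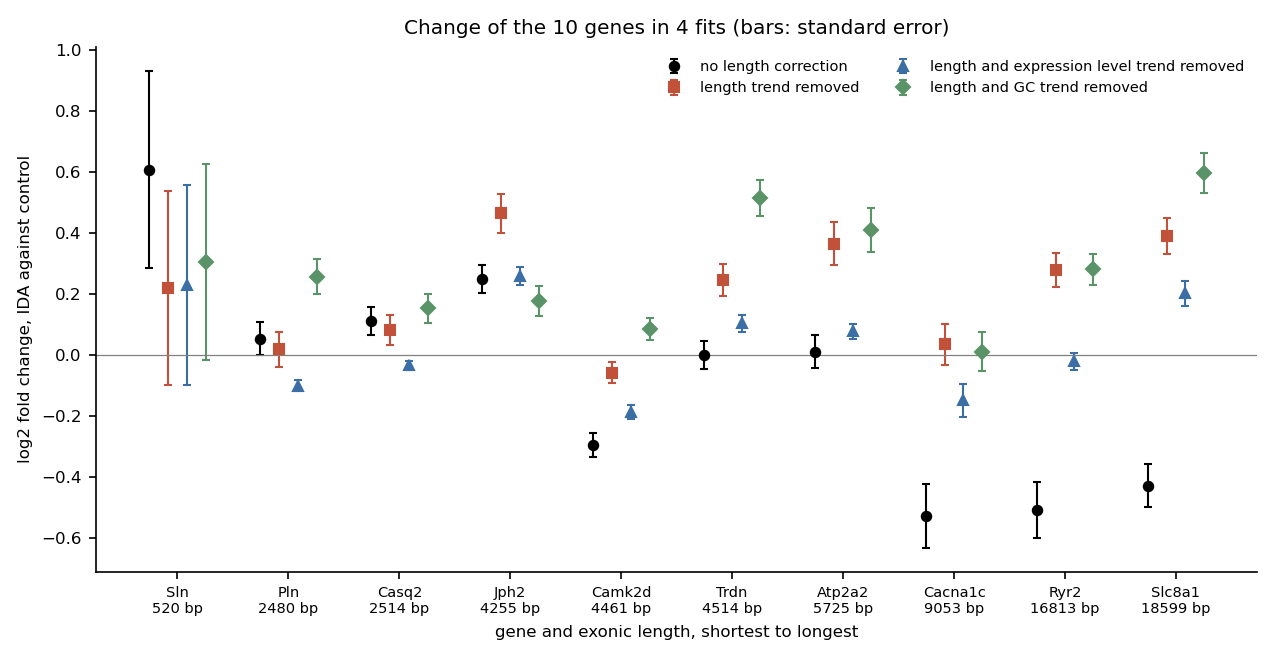
Log2 fold change (IDA against control) of the 10 genes, ordered by exonic length, in 4 fits: no length correction, length trend removed, trend on length and expression level removed, and trend on length and then GC content removed; bars are standard errors. Jph2 stays above 0 in all 4, while Ryr2 runs from -0.51 to 0.28 and Slc8a1 from -0.43 to 0.60.

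Library numbers in the deposited columns fell into 2 runs with a gap between them. The study's methods split the sequencing over 2 units without tying either to a library number, so what the runs mark is not given in the sources used here. The lower-numbered run held 5 control and 7 IDA mice, and the higher-numbered run 5 control and 3 IDA mice. Without the length correction, Ryr2 had log2 fold changes of -0.47 and -0.60 within them, Cacna1c -0.47 and -0.67, Slc8a1 -0.43 and -0.47 and Camk2d -0.27 and -0.33, each called in both runs by edgeR. Jph2 was called in the lower-numbered run (0.33, edgeR adjusted p = 0.000325) and not in the other (0.13, edgeR adjusted p = 0.114), and Casq2 likewise (0.20, and 0.0042 with an edgeR adjusted p of 0.967). Pln too was called higher in the lower-numbered run (0.16, edgeR adjusted p = 0.0286) and was at -0.088 in the other (edgeR adjusted p = 0.392). Of all genes, 58.9% and 43.5% were called in the runs. With the length trend removed, 6 genes were called in the lower-numbered run and 2, Jph2 (0.35) and Slc8a1 (0.40), in the other, beside 42.9% and 28.8% of all genes.

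The order of transcript levels per length, in RPKM, which divides CPM by the kilobases of exon (means over 10 mice), was headed by Pln and closed by Slc8a1 in either diet. In control hearts Pln led at 223 ± 20.1, then Atp2a2 at 193 ± 16.3, Casq2 at 184 ± 15.0, Jph2 at 132 ± 9.502 and Ryr2 at 106 ± 10.6 (SD). Sln (64.0 ± 33.2), Trdn (62.8 ± 3.77), Camk2d (62.0 ± 2.56) and Cacna1c (56.5 ± 7.23) came next, and Slc8a1 was last at 39.9 ± 3.08. Of these neighbours in the order, only Casq2 and Jph2 had ranges that did not overlap. In IDA hearts Casq2 (199 ± 11.6) stood before Atp2a2 (195 ± 17.4) and Sln (97.0 ± 46.0) before Ryr2 (74.3 ± 14.5), and every pair of neighbours overlapped. The genes at the head of the order are those whose read pairs were flat.

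No library scaling factor enters a ratio of partners within a mouse, but partners whose read pairs follow the library total unequally carry that total into it. In total, 6 pairs were compared in both forms (12 two-sided permutation tests on mean log2 ratios, Benjamini-Hochberg adjusted over the 12). The ratio of Pln to Atp2a2, inhibitor to pump, was -0.999 ± 0.012 in control and -0.956 ± 0.032 in IDA hearts (SD of log2 ratios, n = 10 each). This difference of 0.04, with 10 of 10 IDA mice above the control mean, passed the permutation test (adjusted p = 0.00068), but it turned to -0.35 with the length trend removed (permutation adjusted p = 6e-05). Both genes are among the flat ones.

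The ratio of Slc8a1 to Atp2a2, which sets calcium removal from the cell beside its return to the store, differed by -0.45 on the log2 scale without the correction (permutation adjusted p = 0.000336) and by 0.03 with it (permutation adjusted p = 0.683). Casq2 to Ryr2 differed by 0.64 without the correction and by -0.19 with it (permutation adjusted p = 0.00028 and 0.000336). Trdn to Casq2 differed by -0.11 and 0.16 (permutation adjusted p = 0.00343 and 6e-05). All 3 of these differences changed sign with the correction. In control mice the partners followed the library total unequally. Slopes of log2 read pairs on log2 total were 0.14 for Atp2a2, 0.16 for Casq2, 0.62 for Trdn, 1.45 for Ryr2 and 1.57 for Slc8a1. In IDA mice they were 0.07, 0.42, 0.35, 0.36 and 0.96 in that order. The slopes carry no error estimate. IDA totals ran from 6682177 to 7833916 read pairs with a median of 6806177, so few mice set the IDA slopes. The part of the totals in these ratios was not tested.

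Cacna1c to Ryr2, trigger channel to release channel, did not differ detectably without the correction (-0.02, permutation adjusted p = 0.683) and was lower in IDA with it (-0.25, permutation adjusted p = 0.000789, 10 of 10 IDA mice below the control mean). Sln to Atp2a2 differed by 0.55 and -0.19, and neither passed (permutation adjusted p = 0.299 and 0.683). A trend of either gene on length enters each corrected ratio.

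Sarcolipin in the mouse heart belongs to the atria, and Sln moved with atrial transcripts from mouse to mouse. The 5 tested atrial markers were Myl4 and Myl7, the atrial myosin light chains, Nppa, the atrial natriuretic peptide, Dkk3 and Kcnj3. Across control mice Sln and the mean log2 CPM of these markers had r = 0.98 (rho = 1, permutation p = 1e-05 for both, the smallest possible), and across IDA mice r = 0.92 (rho = 0.96, permutation p = 5e-05 and 7e-05); adjusted over 12 relations, the Pearson values were 2.4e-05 and 0.0001. Without the 2 mice farthest from the median marker mean, r was 0.99 and 0.85. With Myl7 alone, r was 1.00 and 0.99.

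**Figure D5:**
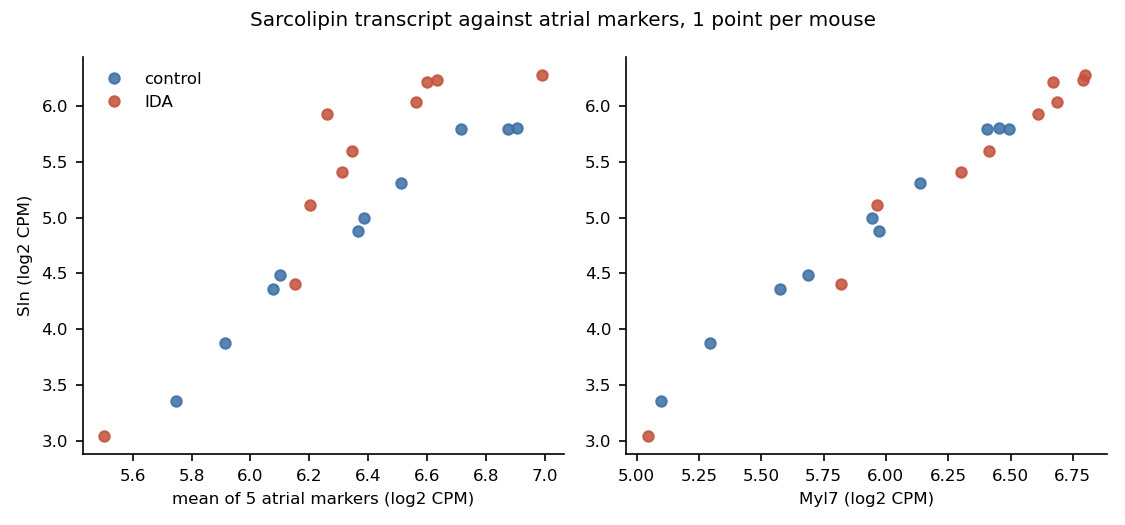
Sln against the mean of 5 atrial markers (left) and against Myl7 alone (right), all in log2 CPM, with 1 point per mouse. Sln rises with the markers in both diets, most IDA points on the left lie above control points of a like marker mean (replicate 7 lies below control replicate 1, and replicate 6 has the lowest marker mean of all), and the diets fall along 1 line on the right.

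The summed CPM of all 6 listed atrial markers, Bmp10 included, was 301 to 673 in control and 287 to 829 in IDA hearts. Bmp10 had no reads in 5 mice and was not tested. Nppa was called higher in IDA without the length correction (0.33, edgeR adjusted p = 0.0024), and Kcnj3, an inward rectifier subunit, was called lower (-1.35, edgeR adjusted p = 9.09e-07). Myl4 (0.38, edgeR adjusted p = 0.0836), Myl7 (0.42, edgeR adjusted p = 0.0615) and Dkk3 (0.30, edgeR adjusted p = 0.401) were not called. With the length trend removed Nppa was no longer called (0.01, edgeR adjusted p = 0.912), and Kcnj3 was still called lower (-1.53, edgeR adjusted p = 1.3e-06). Myl4 (0.06), Myl7 (0.05) and Dkk3 (0.40) were again not called. In the mean of the 5 markers the value of Kcnj3 is opposite in sign to the other 4. That mean did not differ detectably without the correction (difference -0.003, permutation p = 0.986) or with it (-0.22, permutation p = 0.248).

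The value of Sln at a given atrial signal turned on which markers stood for it. With the 5-marker mean as a covariate, Sln had a log2 fold change of 0.63 ± 0.13 (SE, edgeR adjusted p = 0.000187) without the length correction and 0.24 ± 0.11 (edgeR adjusted p = 0.0633) with it. With Myl4 and Myl7 alone, an alternative chosen after the fall of Kcnj3 was seen, it was -0.13 ± 0.05 (edgeR adjusted p = 0.0478) and -0.49 ± 0.08 (edgeR adjusted p = 4.12e-05). Both covariates entered without a length correction, so the corrected values set a corrected Sln beside uncorrected markers. The log2 difference of Sln from the mean of Myl4 and Myl7 did not differ detectably between diets. It was 0.17 higher in IDA uncorrected (permutation p = 0.378) and 0.13 higher with both sides corrected (permutation p = 0.493). The share of atrial tissue in each sample was not recorded in the labels, and its part in Sln was not tested further.

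Other calcium-handling genes moved in either direction. Of 64 such genes listed, 57 were tested; Strit1, Dwort, Mrln, Mcub, Micu2, Smdt1 and Slc8b1 were not listed under those names. Without the length correction 23 were called higher, 22 lower and 12 were not called, and with it 25, 11 and 21, beside the shares of all genes given above. Their median log2 fold change was 0.04 and 0.09. Of the 57, 19 were called in the same direction in both fits and 8 in opposite directions, beside the 40.6% and 3.76% of all genes.

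Near the release site, Jph1, another junctophilin, fell from 77.9 ± 6.82 to 51.0 ± 6.49 CPM (log2 fold change -0.61, and -0.34 with the length trend removed, both called), opposite to Jph2. Jsrp1, a low transcript at 1.25 ± 0.29 CPM in control and 2.45 ± 1.00 in IDA hearts, was called higher in both fits (0.98 and 0.70). Hrc, a luminal calcium-binding protein, was called in neither fit (0.10 and 0.06), and Srl, sarcalumenin, was called only with the correction (0.0004 and 0.29). Of the 11 genes of the triad and lumen, 4 were called higher and 4 lower without the correction, and 5 and 3 with it.

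Among the 9 partners of the release channel, 5 were called higher and 2 lower, then 3 and 2 with the length trend removed. Akap6, the anchor of kinases at the nuclear envelope and the reticulum (10263 bp of exon), had -0.62 without the correction and 0.003 with it, and only the first was called. Fkbp1b, the calstabin that binds Ryr2, was low (1.597 ± 0.34 and 1.90 ± 0.68 CPM) and not called (0.27 and -0.02).

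Of 9 tested genes around the pump, 4 were called higher and 3 lower, and 2 and 2 with the correction. Ppp1r3a, a glycogen-associated regulatory subunit of protein phosphatase 1, showed the strongest fall, from 320 ± 43.2 to 168 ± 31.1 CPM (-0.94 and -0.48, called in both fits). Ppp1r1a, the phosphatase inhibitor-1 that favours phosphorylated phospholamban, was called higher without the correction only (0.45 and 0.21), and the catalytic subunit gene Ppp1cb with the correction only (-0.07 and 0.11).

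Among 9 channel subunit genes, 3 were called higher and 5 lower, and 6 and 1 with the length trend removed. Cacna2d1, the auxiliary subunit that carries the channel to the surface, fell from 443 ± 56.8 to 254.9 ± 47.3 CPM (-0.80 and -0.32, called in both fits). Cacnb3 was called higher in both (0.52 and 0.58). Ahnak, whose very large product binds the channel's beta subunit, had 18543 bp of exon and turned from -0.44 to 0.39, called in both, as did the equally long Slc8a1.

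Of 9 other membrane and kinase genes, 3 were called higher and 3 lower, and 3 and 2 with the correction. Fxyd1, which encodes phospholemman and has 712 bp of exon, was called in opposite directions (0.22 and -0.13). Camk2a, another CaMKII gene, was called lower without the correction only (-0.22 and 0.11).

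Of 7 store-operated and inositol trisphosphate receptor genes, 2 were called higher and 4 lower, and 4 and 0 with the length trend removed. Orai1, a store-operated channel of the surface, rose from 37.2 ± 2.16 to 55.7 ± 5.87 CPM (0.58 and 0.44), and Orai3 rose too (0.32 and 0.20). Itpr1 was called lower without the correction only (-0.69 and -0.09). Of the mitochondrial genes tested, Letm1 was called higher in both fits (0.20 and 0.32) and Mcu, the pore of the calcium uniporter, lower in both (-0.21 and -0.18).

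Markers of other cells were measured beside these results, and their part in them was not tested. Of the erythroid list, Alas2 and Slc4a1 were called higher in IDA in both fits (1.42 and 4.04 without the correction), the 5 markers found summed to 51.2 to 125 CPM in control and 134 to 561 CPM in IDA hearts, and Hba-a1 and Hba-a2 were at 0 in all 20 mice. The 6 fast skeletal muscle markers summed to 5.89 to 12.7 CPM and 8.55 to 34.2 CPM. Endothelial markers summed to 1268 to 1425 and 1121 to 1347 CPM, fibroblast markers to 949 to 1131 and 916 to 1148 CPM, and leukocyte markers to 41.5 to 57.1 and 38.5 to 71.8 CPM. The 3 ventricular markers (Myl2, Irx4 and Hey2) summed to 266 to 319 and 285 to 340 CPM. Single markers moved within these sums: Hey2, a ventricular transcription factor, was lower in both fits (-0.49 and -0.51), as was Pdgfra of the fibroblast list (-0.71 and -0.28). Without the correction the tested ventricular markers held 2 called higher and 1 lower, the fibroblast markers 1 and 1, the endothelial markers 1 and 2, the leukocyte markers 2 and 1 and the skeletal markers 1 and 0. With it these counts were 1 and 2 for ventricular, 2 and 1 for fibroblast, 2 and 0 for endothelial, 1 and 0 for leukocyte and 0 and 0 for skeletal markers.

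The genes whose length-corrected pattern over the 20 mice, after subtraction of the diet means, was most like each of 4 of these genes were found by Pearson's r, given here as a description. For Sln they were Myl7, Myl4 and Mybphl (r = 0.99 each). For Atp2a2 they were Mfn2, Myh6 and Lpl (r = 0.99 each), and for Pln they were Atp5a1, Mdh1 and Acadl (r = 1.00, 0.99 and 0.99). For Ryr2 they were Akt1 (0.95), Rap1gap2 (0.93) and Glud1 (0.92). The genes nearest to Atp2a2 and Pln were themselves densely covered, at 1.13 to 1.70 read pairs per exonic base, so that these points share the library total as well as the mouse.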

How the data were processed

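Hearts of 20 mice were sequenced. Per the file headers, the authors counted read pairs on exons with featureCounts 1.4.5-p1 (unstranded, UCSC mm10 annotation) after removal of duplicate pairs. STAR, its version not given, is named in the submitters' processing notes. The deposited counts are raw, not normalized, and every column was mapped to a mouse. The study left out 1 mouse per group because of sample contamination, without naming it. All 20 were kept here, so every result includes the mice that the study excluded.

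For testing, a gene needed 1 CPM or more in 10 or more hearts. The test was edgeR 4.0.16 (TMM factors, quasi-likelihood test, diet only, Benjamini-Hochberg over 13590 genes); 9830 were not tested. For the length correction, each mouse's deviations of log2 CPM (prior count 2) were smoothed by loess on log2 exonic length (span 0.5, degree 1) and entered as offsets. Standard errors were the log2 fold change divided by the root of F. DESeq2 1.42.0 served as an alternative. Permutation tests used 100000 resamples (numpy 2.4.6), and the tests were tried on simulated counts. Exons of the 10 genes shared no bases with other listed genes. GC content and coding sequences came from GENCODE M21.

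By rule, all 10 genes, every marker, and from each group of other calcium genes the 2 most abundant and the highest and lowest log2 fold change are named. Some of the genes so chosen are not reported here. The genes and lists were chosen with earlier results of these data known.

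Same-numbered mice of the 2 diets were not treated as pairs. Alternatives included other scalings, filters, length trends, covariates and leaving out mice.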

Additional observations from a re-analysis of the deposited data

Results flagged for a closer look

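Cacna1c was at 531 CPM in IDA replicate 7, far above the other IDA mice, the next of which was at 400.0 CPM. That gap was 0.483 of the group's range, beyond Dixon's 95% criterion for 10 samples. Of 20 groups of mice checked (10 genes in each diet) this was the only one beyond it, and chance passes about 1 group in 20. The same mouse had the highest IDA value of 8 of the 10 genes, a library of 6686282 read pairs, with only 1 library smaller, and a length slope of -0.026, the highest of the 10 IDA mice; their part in its Cacna1c value was not tested. Without any one mouse of each diet, Cacna1c stayed called lower without the length correction in all 100 fits, at -0.65 to -0.46.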

How the results depend on the processing

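Beside the 6 and 5 genes called without and with the length correction, 10 were called without it when scaling factors came from the 9150 genes under 0.2 read pairs per base, a scaling that moved the median log2 fold change of all genes from 0.02 to 0.15 and the share of calls that were higher from 51.9% to 66.2%; 71.0% of all genes were then called. With it, 8 were called after a further GC trend (47.4% of all genes) and 2 within the higher-numbered run of libraries (28.8% of all genes), where fewer mice were fitted. Leaving out 1 mouse of each diet gave 5 to 7 and 5 to 6 called genes. These scalings, library numbers and the trend on coverage were chosen after seeing the data. Read pairs of Pln, Atp2a2 and Casq2 varied little between libraries, and those of Jph2 and Trdn followed the total only in part, which limits the CPM of these genes. The cause of the shifts was not tested.

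Some single values changed sign. With the log2 library total as a covariate and no length correction, Atp2a2 stood at -0.14, Pln at -0.10, Casq2 at -0.018 and Trdn at -0.091; with the correction, Pln at -0.14, Casq2 at -0.053 and Cacna1c at -0.052. Within the higher-numbered run, Atp2a2 stood at -0.14, Pln at -0.088 and Trdn at -0.064 uncorrected, and Pln at -0.12, Casq2 at -0.026 and Cacna1c at -0.095 corrected. A trend on length and mean level gave Ryr2 -0.019, Pln -0.099, Casq2 -0.032 and Cacna1c -0.15, and one on length and read pairs per base gave Pln -0.055 and Cacna1c -0.12. Cacna1c was -0.012 with no filter on low counts and -0.050 with a straight line on length, and Camk2d 0.087 after the GC trend. Trdn, uncorrected, was -0.0063 by DESeq2. Leaving out mice gave -0.035 to 0.056 for Atp2a2 and -0.033 to 0.040 for Trdn uncorrected, and -0.022 to 0.063 for Pln and -0.033 to 0.080 for Cacna1c corrected. Sln with Myl4 and Myl7 as a covariate stood at -0.13 and -0.49, the covariate itself not being corrected for length in either fit.

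Without single mice, the log2 ratio of Sln to Atp2a2 differed by 0.39 to 0.82 uncorrected and by -0.37 to 0.10 corrected, and passed only without IDA replicate 6 (0.82, permutation adjusted p = 0.0463), and Slc8a1 to Atp2a2 corrected by -0.00022 to 0.064. The other 9 ratio results kept their direction and side of the threshold in all leave-one-out runs.

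Replicate numbers did not pair the mice: same-numbered mice correlated at -0.28 to 0.26, over 0.1 in 3 of 10 pairs, and 3 mice correlated best with their own number. With replicate number as a block, 5 genes were called in either fit, Casq2 was no longer called (0.11, edgeR adjusted p = 0.0586), Trdn stood at -0.00025, and all-gene calls went from 9177 to 8912 and from 7474 to 6990; no other call of the 10 genes changed.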
